A study of Rattus norvegicus with 30 samples.

Results

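The genes described are the colony-stimulating factor receptors Csf1r, Csf2ra and Csf2rb and the ligands Csf1 and Il34, measured in rat microglia after stroke. They were chosen by name: a gene belonged if the platform's annotation gave its symbol to a probe set. Of the 14506 genes named by a probe set, these are 5, each with 1 probe set, and all 5 were among the 11675 genes whose signal was bright enough to be tested. Microglia, the resident macrophages of the brain, were isolated from male rats after 75 min of occlusion of the middle cerebral artery under 1.2% isoflurane, or from sham controls. The 30 samples formed 10 groups of 3. At 12 and at 3 months of age there were ipsilateral (injured) samples at day 14 and day 3, contralateral (opposite hemisphere) samples at the same days, and sham samples. The sample characteristics name the strain Wistar Kyoto, whereas the protocols name spontaneously hypertensive rats, for all groups alike. The series set the days and the ages against each other to follow the course of microglial activation. How the microglia were isolated and which hemisphere the sham samples came from are not given in the sources used here. The titles of the sham samples name no day, and the same 3 of each age are the reference for both days.

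Csf1r is the receptor tyrosine kinase on which microglia depend for survival and proliferation. Its ligands are Csf1 (M-CSF), made by microglia and other cells, and Il34, made in brain largely by neurons. Csf2ra is the ligand-binding alpha chain of the receptor for GM-CSF, the product of Csf2, and Csf2rb is the beta common chain, which signals through Jak2 and Stat5 and also serves the receptors for interleukins 3 and 5.

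Promoter sequences from RefSeq (assembly GRCr8), 250 bases before to 50 bases after the start of the gene, were found for 2 of the 5 genes. All 5 genes were searched, and every sequence found is shown. Capitals mark GAGGAA or its reverse complement TTCCTC, letters found in sites bound by PU.1, the transcription factor encoded by Spi1. Sites with other letters were not searched for, so lower case does not show that a site is absent. The Csf1r sequence lies at chr18:56834129-56834428 on the plus strand and the Csf2ra sequence at chr14:118068-118367 on the minus strand, both printed 5′ to 3′ along the gene.
Csf1r: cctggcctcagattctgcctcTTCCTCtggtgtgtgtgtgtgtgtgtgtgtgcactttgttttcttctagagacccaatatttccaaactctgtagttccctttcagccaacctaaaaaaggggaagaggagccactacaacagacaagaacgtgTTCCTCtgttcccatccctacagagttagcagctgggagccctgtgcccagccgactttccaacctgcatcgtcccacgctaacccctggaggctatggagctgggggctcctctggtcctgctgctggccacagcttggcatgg
Csf2ra: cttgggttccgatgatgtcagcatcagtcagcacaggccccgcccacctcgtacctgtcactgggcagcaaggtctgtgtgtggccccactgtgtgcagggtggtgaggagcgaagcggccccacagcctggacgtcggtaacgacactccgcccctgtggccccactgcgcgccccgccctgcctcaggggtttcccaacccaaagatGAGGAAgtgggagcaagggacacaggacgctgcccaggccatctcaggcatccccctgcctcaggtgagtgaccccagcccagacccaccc
The Csf1r window held the letters at 2 places, with first bases at -229 and -95 from the start and both on the reverse strand. Distances count from the annotated start of the gene. The 50 Csf1r bases after it open with atg, and whether transcription starts there was not tested. The Csf2ra window held them once, at -41 on the forward strand, as part of the longer GAGGAAGT. On either strand, GAGGAA occurred in 27.6% of 33469 RefSeq promoter windows of this length, at 2 or more places in 4.83%, and GAGGAAGT in 2.42%. A match of letters does not show binding. Csf1, Il34 and Csf2rb had no entry.

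All values below are log2 signals on an array as deposited by the authors, and all changes are differences of group means on that scale (n = 3 samples in each group). Differences were tested with limma over all 11675 genes, and a gene was called at a Benjamini-Hochberg adjusted p under 0.05. Array medians lay between 5.06 and 5.24, and the 30th percentile of an array, used as the limit for a dim signal, between 4.07 and 4.35. The spread of the signals on an array, as a standard deviation, ran from 1.79 to 2.05, so the arrays did not share 1 distribution. The hemisphere comparisons set samples of the same animals against each other, whereas each comparison with sham uses other animals. The main fit had no term for the animal, which entered only alternative fits. The sample codes carry a number of unstated meaning that differs between the 3-month sham, 3-month day 3, 3-month day 14 and 12-month samples. It cannot be told apart from the group when 3-month samples are compared with sham or between days, or when the ages are compared in sham.

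Between the hemispheres, both GM-CSF receptor chains rose and Csf1r fell at both ages and both days. Csf1 rose in 3 of the 4 settings, and Il34 passed the test in none. At 12 months and day 14, 3 of the 5 genes rose and 1 fell, where limma called 16.8% of all genes. The counts were the same at 12 months and day 3, with 28.7% of genes called, and at 3 months and day 14, with 20.3% called. At 3 months and day 3, 2 rose and 1 fell, with 20.4% of genes called.

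**Figure D1:**
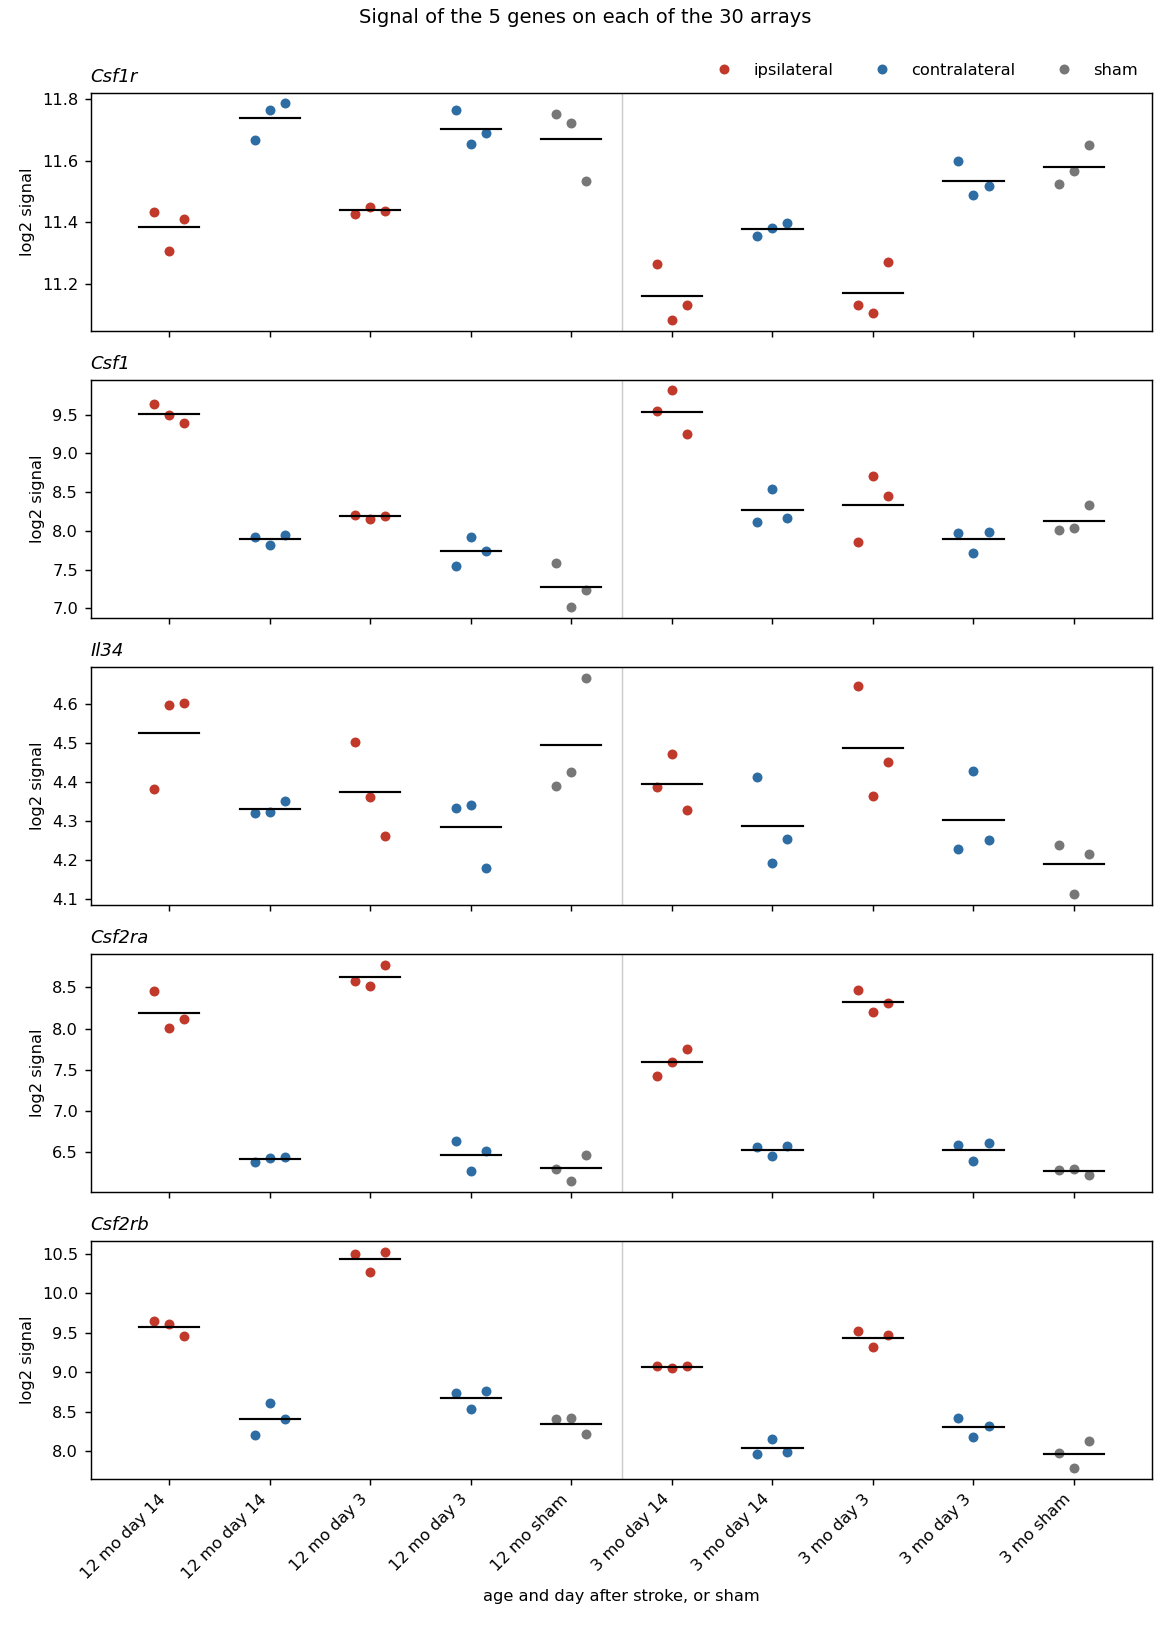
Log2 signal of Csf1r, Csf2ra, Csf2rb, Csf1 and Il34 on each of the 30 arrays (vertical axes), by group (horizontal axis), with points for arrays, coloured by hemisphere or sham, and a bar for each group mean. Ipsilateral arrays lie above the contralateral arrays of the same age and day for Csf2ra and Csf2rb and below them for Csf1r, and Il34 stays between 4.11 and 4.67.

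Csf1r had the smallest changes of the 4 genes that were called. At 12 months and day 14 its signals were 11.43, 11.31 and 11.41 in ipsilateral samples, against 11.67, 11.77 and 11.78 in contralateral samples. At 12 months and day 3 they were 11.43, 11.45 and 11.44 in ipsilateral samples, against 11.76, 11.66 and 11.69 in contralateral samples. No ipsilateral array reached a contralateral one at either day. In 3-month rats at day 14 the signals were 11.26, 11.09 and 11.13 in ipsilateral samples, against 11.35, 11.38 and 11.40 in contralateral samples. At 3 months and day 3 they were 11.13, 11.11 and 11.27 in ipsilateral samples, against 11.60, 11.49 and 11.52 in contralateral samples. The groups did not overlap here either, so the ipsilateral arrays were the lower ones in all 4 settings. Csf1r fell by 0.35 ± 0.08 (SE) at 12 months and day 14 (adjusted p = 0.0011), which is a 1.28-fold decrease. It fell by 0.26 at 12 months and day 3 (adjusted p = 0.009) and by 0.36 at 3 months and day 3 (adjusted p = 0.00065). At 3 months and day 14 it fell by 0.22 (adjusted p = 0.042). With the animal as a fixed block that last value had an adjusted p of 0.091, and 5 of 6 fits that left out 1 array lost the call. Quantile normalization of the deposited values moved the change to -0.43 at 12 months and day 3, -0.41 at 3 months and day 14, and -0.57 at 3 months and day 3. These are bulk samples, in which fewer cells of a type and less RNA per cell cannot be told apart.

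Against sham, Csf1r was lower in the ipsilateral samples of each age and day. The sham signals were 11.75, 11.72 and 11.53 at 12 months and 11.52, 11.57 and 11.65 at 3 months. The change from sham at 12 months was -0.28 at day 14 (adjusted p = 0.0068) and -0.23 at day 3 (adjusted p = 0.018), and leaving out 1 array lost the call in 1 fit and in 2 fits. At 3 months it was -0.42 at day 14 (adjusted p = 7.4e-05) and -0.41 at day 3 (adjusted p = 4e-05). The contralateral samples differed from sham by 0.07 and 0.03 at 12 months, days 14 and 3, and by -0.05 at 3 months and day 3, none of them called. At 3 months and day 14 the contralateral change was -0.20 (adjusted p = 0.038), but it was 0.02 after quantile normalization, and 5 of 6 fits without 1 array lost the call. By group mean the order ran from 11.74 in contralateral 12-month samples at day 14 to 11.16 in ipsilateral 3-month samples at day 14. In that order each of the first 5 groups, down to contralateral 3-month samples at day 3, overlapped the next in the run, and the fifth did not overlap the group below it.

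Csf2ra, the alpha chain that binds GM-CSF, rose in every ipsilateral group. Ipsilateral samples of 12-month rats had Csf2ra signals of 8.46, 8.0 and 8.11 at day 14, against 6.38, 6.42 and 6.44 in contralateral samples. Ipsilateral samples of 12-month rats had Csf2ra signals of 8.58, 8.52 and 8.78 at day 3, against 6.63, 6.27 and 6.51 in contralateral samples. The lowest ipsilateral array of 12-month rats lay more than 1 log2 unit above the highest contralateral one. Ipsilateral samples of 3-month rats had Csf2ra signals of 7.43, 7.59 and 7.75 at day 14, against 6.56, 6.45 and 6.57 in contralateral samples. Ipsilateral samples of 3-month rats had Csf2ra signals of 8.47, 8.20 and 8.31 at day 3, against 6.58, 6.39 and 6.61 in contralateral samples. The groups did not overlap in any of the 4 settings. The change was 1.78 ± 0.11 (SE) at 12 months and day 14 (adjusted p = 1.3e-12) and 2.16 at 12 months and day 3 (adjusted p = 1.5e-14), or 3.42-fold and 4.46-fold. At 3 months it was 1.06 at day 14 (adjusted p = 4.3e-08) and 1.80 at day 3 (adjusted p = 2.2e-12), or 2.09-fold and 3.48-fold. Ranked by change among the 11675 genes, Csf2ra stood 43rd and 41st from the top at 12 months, days 14 and 3, and 124th and 57th at 3 months.

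The sham signals of Csf2ra were 6.29, 6.15 and 6.47 at 12 months and 6.28, 6.30 and 6.23 at 3 months. Ipsilateral samples exceeded sham by 1.89 at day 14 and 2.32 at day 3 in 12-month rats, and by 1.32 and 2.06 in 3-month rats, with adjusted p of 3.3e-10 or lower. Contralateral samples differed from sham by 0.11 and 0.17 at 12 months, days 14 and 3, and by 0.26 at both days at 3 months (adjusted p = 0.071 and 0.056). None of these contralateral changes was called. After quantile normalization the 3-month ones were called, at 0.37 at day 14 and 0.46 at day 3, and without the contralateral sample of replicate 2 the day 3 one was called at 0.33 (adjusted p = 0.034). In the order of group means, ipsilateral 12-month samples at day 3 came first at 8.62 ± 0.14 (SD) and did not overlap the next group. Ipsilateral 3-month samples at day 3 (8.33 ± 0.14) and ipsilateral 12-month samples at day 14 (8.19 ± 0.24) overlapped each other. Ipsilateral 3-month samples at day 14 (7.59 ± 0.16) stood alone, and the contralateral and sham groups, with means of 6.27 to 6.53, overlapped their neighbours.

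Csf2rb, the beta common chain, rose in the same settings. Csf2rb in 12-month rats at day 14 had signals of 9.65, 9.60 and 9.46 in ipsilateral samples, against 8.21, 8.61 and 8.40 in contralateral samples. Csf2rb in 12-month rats at day 3 had signals of 10.49, 10.27 and 10.53 in ipsilateral samples, against 8.74, 8.53 and 8.77 in contralateral samples. Day 3 gave the higher ipsilateral arrays of this age, and neither day's hemispheres overlapped. Csf2rb in 3-month rats at day 14 had signals of 9.07, 9.06 and 9.09 in ipsilateral samples, against 7.97, 8.16 and 7.99 in contralateral samples. Csf2rb in 3-month rats at day 3 had signals of 9.52, 9.32 and 9.48 in ipsilateral samples, against 8.42, 8.18 and 8.33 in contralateral samples. Again the hemispheres were apart on every array. The change was 1.16 ± 0.11 (SE) at 12 months and day 14 (adjusted p = 1.6e-09) and 1.75 at 12 months and day 3 (adjusted p = 4.5e-13), or 2.24-fold and 3.37-fold. At 3 months it was 1.03 at day 14 (adjusted p = 1.8e-08) and 1.13 at day 3 (adjusted p = 3.8e-09), or 2.05-fold and 2.19-fold.

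Csf2rb signals in sham samples were 8.42, 8.42 and 8.22 at 12 months and 7.98, 7.79 and 8.13 at 3 months. Ipsilateral samples exceeded sham by 1.22 at day 14 and 2.08 at day 3 in 12-month rats, and by 1.11 and 1.47 in 3-month rats, with adjusted p of 2.5e-09 or lower. Contralateral 3-month samples at day 3 also exceeded sham, by 0.34 (adjusted p = 0.0077), with 0.71 after quantile normalization and 1 fit without an array that lost the call. The other contralateral differences from sham were 0.06 and 0.33 at 12 months, days 14 and 3, and 0.07 at 3 months and day 14, and were not called. After quantile normalization the last of these was 0.34 and called. The mean of ipsilateral 12-month samples at day 3, 10.43 ± 0.14 (SD), stood above every other group. Ipsilateral 12-month samples at day 14 and 3-month samples at day 3 came next and overlapped, at 9.57 and 9.44.

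Csf1, a ligand of Csf1r, rose most at day 14. Csf1 signals of 12-month rats at day 14 were 9.63, 9.50 and 9.39 in ipsilateral samples, against 7.91, 7.82 and 7.95 in contralateral samples. Csf1 signals of 12-month rats at day 3 were 8.21, 8.16 and 8.20 in ipsilateral samples, against 7.55, 7.93 and 7.74 in contralateral samples. The hemispheres were apart at both days, by less at day 3. Csf1 signals of 3-month rats at day 14 were 9.54, 9.81 and 9.25 in ipsilateral samples, against 8.11, 8.54 and 8.16 in contralateral samples. Csf1 signals of 3-month rats at day 3 were 7.85, 8.71 and 8.45 in ipsilateral samples, against 7.97, 7.71 and 7.98 in contralateral samples. Only in this last setting did the groups overlap, through the ipsilateral sample of replicate 1. The change was 1.61 ± 0.17 (SE) at 12 months and day 14 (adjusted p = 1.8e-08) and 1.26 at 3 months and day 14 (adjusted p = 1.3e-06), or 3.06-fold and 2.40-fold. At 12 months and day 3 it was 0.45 (adjusted p = 0.042). That call was lost after quantile normalization, at 0.34 (adjusted p = 0.15), and in 5 of 6 fits without 1 array. At 3 months and day 3 it was 0.45 and was not called (adjusted p = 0.056), with a 95% interval of 0.11 to 0.78. Fits with the animal as a block called it, with an adjusted p of 0.044 as a random block and 0.047 as a fixed one. Without the ipsilateral sample of replicate 1 it was 0.69 (adjusted p = 0.0023). That sample also had the highest mean level of the monocyte and macrophage markers in its group, 8.04. The other ipsilateral samples of the group had 7.18 and 6.65. This is 1 sample, and a link between that level and its Csf1 signal was not tested.

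Csf1 in sham samples had signals of 7.58, 7.02 and 7.23 at 12 months and 8.01, 8.04 and 8.33 at 3 months. The ipsilateral rise over sham at 12 months was 2.23 at day 14 (4.69-fold, adjusted p = 2.3e-11) and 0.91 at day 3 (adjusted p = 5.5e-05). At 3 months it was 1.41 at day 14 (adjusted p = 1.1e-07), whereas 0.21 at day 3 was not called (adjusted p = 0.29). Quantile normalization moved the last value to 0.54 (adjusted p = 0.0094). Without 1 array it ran from 0.02 to 0.45, the highest without the ipsilateral sample of replicate 1 (adjusted p = 0.017). Contralateral 12-month samples at day 14 lay above every sham array of their age, by 0.62 on average, but the adjusted p was 0.39 (unadjusted p = 0.00085), in a comparison where 0.00857% of genes were called. The other contralateral differences from sham were 0.46 at 12 months and day 3, 0.15 at 3 months and day 14, and -0.24 at 3 months and day 3, none called. Quantile normalization turned the last to 0.15. Ipsilateral samples at day 14 formed the top of the order, at 9.54 ± 0.28 (SD) in 3-month rats and 9.51 ± 0.12 in 12-month rats, and overlapped each other but no other group. Sham samples at 12 months were lowest, at 7.28 ± 0.29.

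Il34, the other ligand of Csf1r, was close to the dim limit. Its signals ran from 4.11 to 4.67 and lay above the array's 30th percentile on 25 of 30 arrays. Il34 in 12-month rats at day 14 had signals of 4.38, 4.60 and 4.60 in ipsilateral samples, against 4.32, 4.32 and 4.35 in contralateral samples. Il34 in 3-month rats at day 3 had signals of 4.64, 4.36 and 4.45 in ipsilateral samples, against 4.23, 4.43 and 4.25 in contralateral samples. The first pair of groups did not overlap and the second did. The change was 0.20 ± 0.09 (SE) at 12 months and day 14, 0.09 at 12 months and day 3, 0.11 at 3 months and day 14 and 0.18 at 3 months and day 3, with adjusted p of 0.18 to 0.53. The upper ends of the 95% intervals were 0.39, 0.28, 0.30 and 0.38. Against sham, Il34 was called in ipsilateral 3-month samples at day 3 alone, at 0.30 (adjusted p = 0.0086), where sham had 4.24, 4.11 and 4.22. Quantile normalization reduced that to 0.17 (adjusted p = 0.13), and 1 of 6 fits without an array lost the call. Neighbouring groups in the order of Il34 means overlapped throughout.

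Set against sham, ipsilateral samples had 3 of the 5 genes higher and 1 lower in each of the 4 settings. All comparisons of one age share its 3 sham samples. Limma called 20.0% of genes at 12 months and day 14, 37.1% at 12 months and day 3, 34.4% at 3 months and day 14 and 56.8% at 3 months and day 3. For contralateral samples against sham the calls were 0 of 5 at 12 months and day 14, with 0.00857% of genes called, and 0 of 5 at 12 months and day 3, with 1.28% called. They were 1 of 5 at 3 months and day 14, with 38.7% called, and 1 of 5 at 3 months and day 3, with 51.6% called.

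Each of the 12 stroke animals gave its own difference. The ipsilateral minus contralateral difference was below 0 in 12 of 12 animals for Csf1r, with a median of -0.28 and a range of -0.46 to -0.09. It was above 0 in 12 of 12 for Csf2ra (median 1.75, 0.87 to 2.27) and in 12 of 12 for Csf2rb (median 1.12, 0.90 to 1.76). For Csf1 it was above 0 in 11 of 12 (median 1.04, -0.12 to 1.72), the exception being animal 1 at 3 months and day 3. For Il34 it was above 0 in 10 of 12 (median 0.12, -0.07 to 0.42). The 12-month animals at day 3 differed little in Csf2rb, with 1.75, 1.74 and 1.76.

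**Figure D2:**
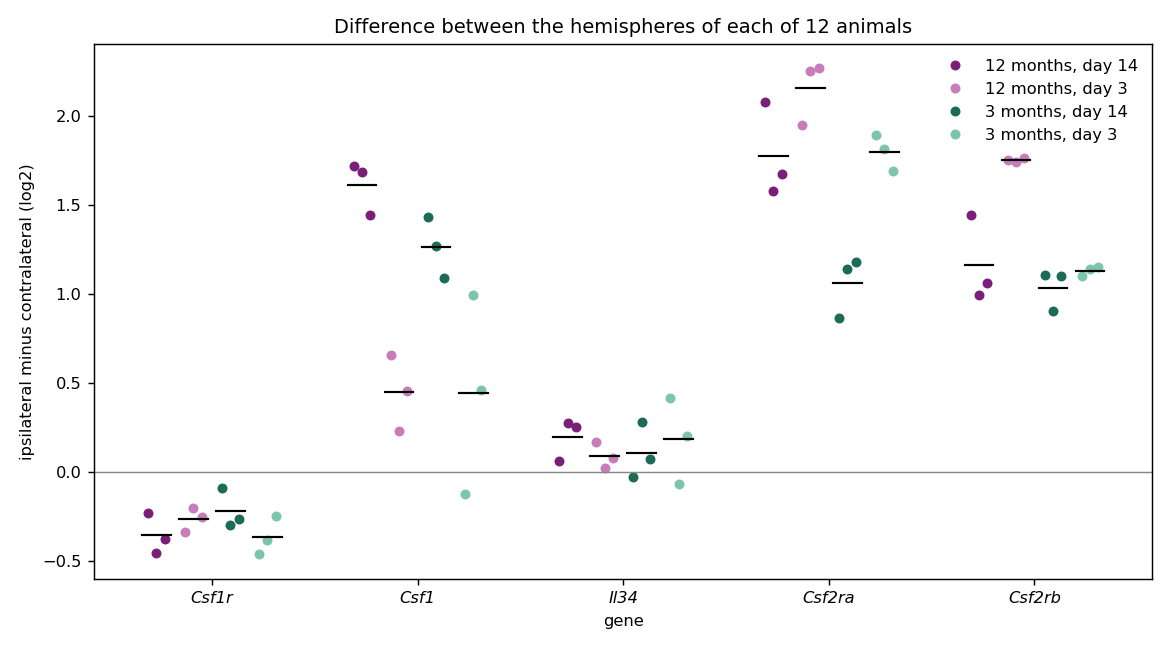
Ipsilateral minus contralateral difference in log2 signal (vertical axis) of each of the 12 stroke animals for the 5 genes (horizontal axis), with points for animals coloured by age and day, short bars for the means of 3 animals and a line at 0. The 12 animals lie above 0 for Csf2ra and Csf2rb and below 0 for Csf1r, and within each age Csf1 is highest in the day 14 animals.

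In ipsilateral samples Csf1 was higher at day 14 than at day 3, whereas both GM-CSF receptor chains were lower. At 12 months Csf1 changed by 1.32 (adjusted p = 4.8e-07), Csf2ra by -0.44 (adjusted p = 0.0056) and Csf2rb by -0.86 (adjusted p = 3.6e-07). The Csf2ra call was lost in 2 of 6 fits that left out an array. At 3 months Csf1 changed by 1.20 (adjusted p = 3.4e-06), Csf2ra by -0.74 (adjusted p = 1.4e-05) and Csf2rb by -0.37 (adjusted p = 0.0092). Csf1r differed between the days by -0.05 at 12 months and -0.01 at 3 months and Il34 by 0.15 and -0.09, none called. Thus 3 of 5 genes were called at each age, where limma called 20.6% of genes at 12 months and 29.6% at 3 months. In contralateral samples 0 of 5 were called at either age, with 1.06% of genes called at 12 months and 10.1% at 3 months. The largest contralateral differences were 0.38 for Csf1 (adjusted p = 0.15) and -0.27 for Csf2rb (adjusted p = 0.10) at 3 months, and -0.27 for Csf2rb (adjusted p = 0.34) at 12 months. After quantile normalization the 3-month Csf2rb difference was -0.37 and called.

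The hemisphere effect, ipsilateral minus contralateral, was then compared between the days, a contrast in which a shift of both hemispheres cancels. At 12 months the effect on Csf1 was larger at day 14 than at day 3 by 1.17 ± 0.23 (SE, adjusted p = 0.0018), and the effect on Csf2rb was smaller, with a difference of -0.59 ± 0.15 (adjusted p = 0.015). These are 2 of 5 genes, where limma called 5.34% of genes. At 3 months the effect on Csf1 was larger at day 14 by 0.82 ± 0.23 (adjusted p = 0.043), and that on Csf2ra was smaller, with a difference of -0.74 ± 0.16 (adjusted p = 0.007). These again are 2 of 5, with 3.81% of genes called. The 3-month Csf1 value had an adjusted p of 0.051 without a filter on dim probe sets and 0.19 with only the arrays compared, and 7 of 12 fits without 1 array lost the call. The 12-month Csf2rb call was lost in 4 of 12 such fits. Csf2ra at 12 months (-0.38, adjusted p = 0.21) and Csf2rb at 3 months (-0.10, adjusted p = 0.81) were not called, with 95% intervals of -0.71 to -0.05 and -0.40 to 0.21. Without the ipsilateral day 14 sample of replicate 1 the 12-month Csf2ra value was -0.51 and called (adjusted p = 0.049). The differences for Csf1r were -0.09 and 0.15 and for Il34 0.11 and -0.08 at 12 and 3 months, none called.

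Between the ages, the hemisphere effect differed for 1 gene. At day 3 the effect on Csf2rb was larger at 12 months than at 3 months by 0.62 ± 0.15 (SE, adjusted p = 0.027), 1 of 5 genes where limma called 1.58% of genes. Leaving out 1 array lost that call in 6 of 12 fits. At day 14 none of the 5 was called, with 0.00857% of genes called, which is a single gene. Csf2ra had the largest of these differences at day 14, 0.71 ± 0.16 (unadjusted p = 0.00012, adjusted p = 0.11), and 0.36 at day 3 (adjusted p = 0.32). For Csf1 the age difference was 0.35 at day 14 (adjusted p = 0.70), with a 95% interval of -0.13 to 0.83, and 0.00 at day 3, with an interval of -0.48 to 0.48. For Csf1r it was -0.14 at day 14 and 0.10 at day 3.

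**Figure D3:**
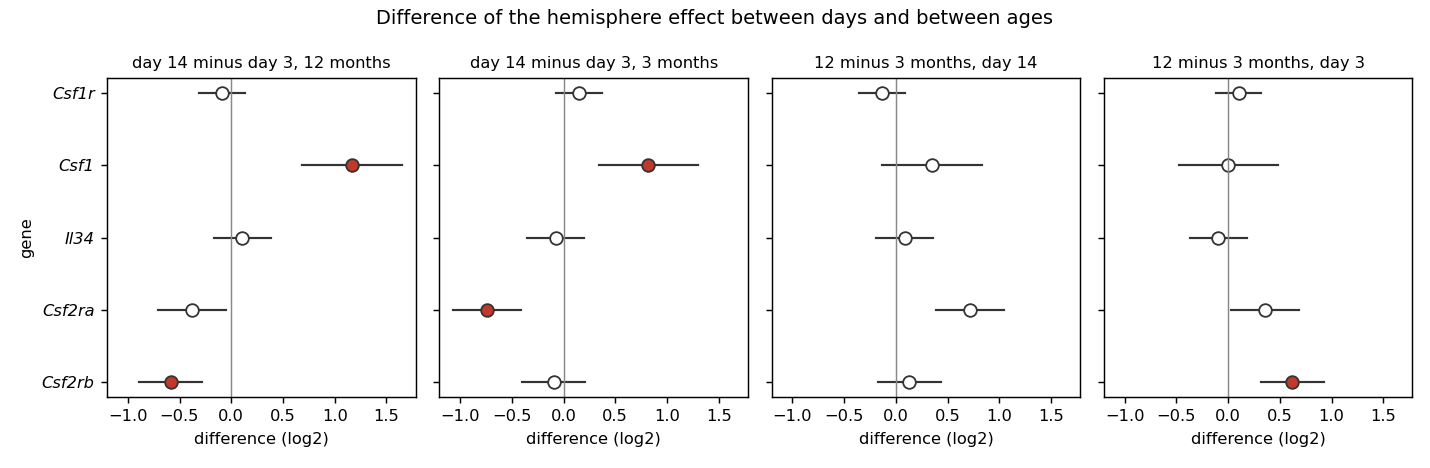
Difference of the hemisphere effect (log2, horizontal axes) between day 14 and day 3 at each age and between 12 and 3 months at each day, for the 5 genes (rows), with circles for the estimate, filled where called, and lines for its 95% interval. Csf1 lies above 0 in both day contrasts, at 1.17 and 0.82, and Csf2ra and Csf2rb lie below 0 there.

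In sham samples the ages differed in Csf1, Il34 and Csf2rb, 3 of the 5 genes, where limma called 13.0% of genes. Csf1 was lower at 12 months than at 3 months, with a difference of -0.85 ± 0.17 (SE, adjusted p = 0.00096), a 1.80-fold decrease in which no arrays overlapped. Csf2rb was higher at 12 months by 0.39 (adjusted p = 0.015), a call lost in 3 of 6 fits without an array. Il34 was higher by 0.31 (adjusted p = 0.031), a call lost in 5 of 6. The difference was 0.09 for Csf1r and 0.03 for Csf2ra, neither called.

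Markers of other cell types moved with the injured hemisphere, so their levels are given beside these results. Between the hemispheres, limma called 16.8% of all tested genes at 12 months and day 14 and 28.7% at 12 months and day 3. At 3 months it called 20.3% at day 14 and 20.4% at day 3. Of 8 microglial markers, 7 had a probe set, none was dim in any group, and 5 of 7 fell between the hemispheres in each setting. Itgam, which other myeloid cells also express, rose in 3 settings, by 0.44 at 12 months and day 14, 0.60 at 3 months and day 14 and 0.22 at 3 months and day 3, and Aif1 was called in none. Their mean level was 9.83 to 10.36 on ipsilateral arrays, against 10.41 to 10.83 on contralateral arrays and 10.64 to 10.84 on sham arrays. Of the 9 measured markers of infiltrating monocytes and macrophages, 8 were tested. Of those tested, 3 rose and 1 fell at 12 months and day 14, 7 rose at 12 months and day 3, 3 rose and 1 fell at 3 months and day 14, and 8 rose at 3 months and day 3. The mean level of the 9 at 12 months and day 14 was 5.94 to 6.33 on ipsilateral arrays, against 5.83 to 5.92 on contralateral arrays. At 12 months and day 3 it was 7.09 to 7.33 on ipsilateral arrays, against 5.77 to 5.98 on contralateral arrays. At 3 months it was 6.08 to 6.27 at day 14 and 6.65 to 8.04 at day 3 on ipsilateral arrays, against 5.75 to 5.77 and 5.68 to 5.75 on contralateral arrays. On ipsilateral arrays this level, like Csf2ra and Csf2rb and unlike Csf1, was lower at day 14 than at day 3 of each age. Sham arrays lay at 5.64 to 5.75 at 12 months and 5.76 to 5.81 at 3 months. Ly6c, a defining marker of this list, was at or below the dim limit in all groups other than ipsilateral 3-month samples at day 3.

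Border-associated macrophage markers, 6 measured, likewise had 6 called higher at 12 months and day 3 and 5 at 3 months and day 3, against 2 higher and 1 lower at day 14 of each age. At 12 months and day 14 the ipsilateral sample of replicate 1 had a mean level of these markers of 6.68. The other ipsilateral samples of that group had 5.36 and 5.73. That sample also had the highest Csf2ra signal of its group, 8.46, and a link was not tested. Of 10 neutrophil markers, 3 were called higher at 3 months and day 3 and 1 at 12 months and day 3. At day 14 none was called higher and 1 fell at 12 months, and 1 was called higher and 3 fell at 3 months. Cxcr2 was the one at 12 months and day 3 and among the 3 at 3 months and day 3, and Mmp8 the one at 3 months and day 14. Both lay at or below the dim limit on every contralateral array and entered the test through the groups where they were high. At 3 months and day 14 the contralateral sample of replicate 3 had a mean neutrophil marker level of 6.96. The other contralateral samples of that group had 5.96 and 5.70. No dendritic cell marker of 6 tested rose in any setting. Of 8 tested T and NK cell markers, Cd8a rose in all 4 settings, by 0.80 to 0.95. Cd4 rose at day 14 of both ages, by 0.70 at 12 months and 0.67 at 3 months. Its signals ran from 8.79 to 10.26 over all 30 arrays, sham included. The other tested markers of this list were called in no setting, and Cd3g was at or below the dim limit in every group. Of 5 tested endothelial markers, Cdh5 fell in all 4 settings, with changes of -0.48 to -0.28, and 2 rose at 12 months and day 3. No tested marker of neurons, astrocytes, oligodendrocytes or B cells rose in any setting. The oligodendrocyte marker Cnp fell at 12 months and day 14, with a change of -0.84 (adjusted p = 2.3e-06). Mbp, of the same list, fell at 12 months and day 3, with a change of -0.47 (adjusted p = 0.0029). At 3 months and day 14, 2 neuronal, 2 astrocyte and 2 oligodendrocyte markers fell. In that setting the contralateral sample of replicate 1 stood highest in the mean level of these lists. It had 4.90 for neurons, against 4.55 and 4.59 in the other contralateral samples. For astrocytes it had 5.26, against 4.63 and 4.92, and for oligodendrocytes 6.38, against 5.92 and 6.16. Infiltrating myeloid cells also express Csf2ra and Csf2rb, and the part of such cells in the changes of the 5 genes was not tested.

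**Figure D4:**
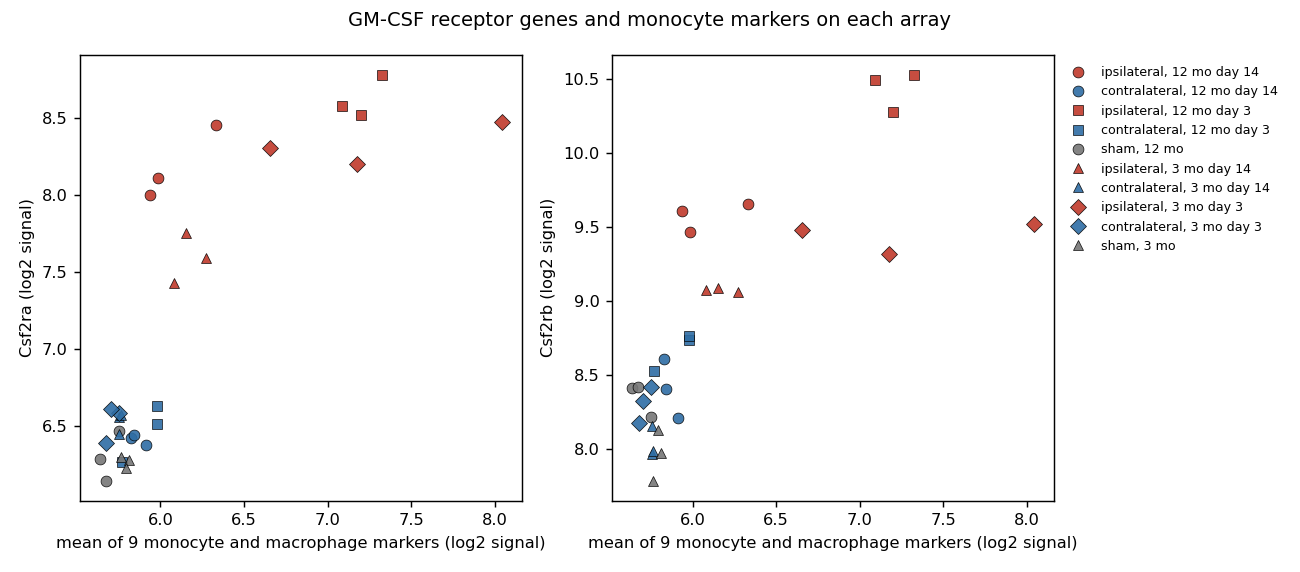
Log2 signal of Csf2ra (left) and Csf2rb (right) on each of the 30 arrays (vertical axes) against the mean log2 signal of the 9 monocyte and macrophage markers on that array (horizontal axes), with colours for hemisphere or sham and shapes for age and day. Ipsilateral day 14 arrays lie above the contralateral and sham arrays for both genes at marker levels of 5.94 to 6.33, and the ipsilateral array with the highest marker level, 8.04, has Csf2ra and Csf2rb signals of 8.47 and 9.52.

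Other genes of the pathways are given by list, with the counts called between the hemispheres in the order 12 months day 14, 12 months day 3, 3 months day 14 and 3 months day 3. The median change of all tested genes was -0.01 in each of these settings. Limma called 16.8%, 28.7%, 20.3% and 20.4% of all tested genes in them, in the same order. Of the 15 sister cytokines and receptors, 7 were tested. Called higher were 1, 2, 0 and 2 of them and called lower 0, 0, 1 and 0, with median changes of 0.06, -0.04, -0.05 and 0.16. Il3ra, the interleukin 3 receptor alpha chain that pairs with the beta common chain, changed by 0.74 (adjusted p = 0.00079), 1.48 (1.5e-08) and 1.21 (9e-07) in the first, second and last setting, and 0.15 at 3 months and day 14 was not called. Sdc1, a syndecan known in human cells to bind IL-34, rose by 1.77 (adjusted p = 2.1e-11) and 0.83 (2.5e-05) at day 3 of 12 and 3 months. The gene called lower at 3 months and day 14 was Csf3, which encodes G-CSF, at -0.39 (adjusted p = 0.0058). Its signals, 4.29 to 4.98, lay above the dim limit on all 30 arrays but close to it. Csf2, which encodes GM-CSF, lay at or below the dim limit on all 30 arrays, with signals of 3.10 to 3.72, and had no tested value.

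Of the adaptors and enzymes of Csf1r signalling, 21 of 26 were tested. Called higher were 4, 5, 4 and 3 and called lower 2, 3, 2 and 2, with median changes of 0.07, 0.07, 0.15 and 0.05. Cblb, a ubiquitin ligase of the Cbl family, rose in all 4 settings, by 0.68, 1.25, 0.33 and 1.03 (adjusted p = 4.4e-05, 7.4e-10, 0.033 and 6.3e-08). Against sham, ipsilateral Cblb was called in all 4 as well, at 0.55, 1.15, 0.34 and 0.55. Contralateral Cblb was lower than sham at 3 months and day 3 alone, with a difference of -0.48 (adjusted p = 0.00068). Gab2, a docking protein, rose by 0.86, 0.40, 0.49 and 0.62. Against sham, ipsilateral Gab2 was called at 12 months and day 14 alone (0.45, 0.21, 0.14 and 0.07), and contralateral Gab2 was lower than sham at 3 months, by -0.35 at day 14 and -0.55 at day 3. Inpp5d, the phosphatase SHIP1 that opposes phosphoinositide 3-kinase, fell in all 4, with changes of -0.53, -0.50, -0.48 and -0.57. The other genes called lower were Lyn at day 14 of both ages (-0.45 and -0.35), Plcg2 at day 3 of both ages (-0.47 and -0.42), and Pik3r1 at 12 months and day 3 (-0.31). Of the Jak-Stat5 list, 14 of 15 were tested, with 4, 4, 4 and 5 higher and 1, 2, 2 and 2 lower and medians of 0.14, 0.06, 0.13 and 0.10. Its members moved both ways. Socs2, an inhibitor of Jak-Stat signalling that Stat5 induces, fell in all 4 settings, with changes of -1.95, -1.45, -1.36 and -1.20. Pim1, a kinase that Stat5 also induces, rose by 0.69, 0.90, 0.43 and 0.76. Cish, of the same list, was called in none of the 4 settings, with changes of 0.14, -0.13, 0.33 and -0.07. Stat3, a signal transducer of several cytokine receptors, rose by 0.58, 0.57, 0.62 and 0.57. Stat5a itself was called at 3 months and day 14 alone, at -0.54 (adjusted p = 0.0002).

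Of 13 transcription factors known to act on Csf1r, 12 were tested, with 4, 2, 3 and 4 higher and 0, 2, 0 and 3 lower and medians of 0.16, -0.01, 0.06 and -0.07. Tfec, a factor of the Mitf family found in macrophages, lay above the dim limit on 12 of 30 arrays, the ipsilateral ones, and so entered the test through the groups where it was high. With each contralateral array set at its limit, its ipsilateral signal was at least 2.29-fold, 2.35-fold, 1.99-fold and 2.67-fold higher (adjusted p of the fit on the measured values = 2.1e-07, 1.4e-08, 9.9e-07 and 6.3e-09). Ets2, an ETS factor, rose by 0.56, 0.55 and 0.68 in the last 3 settings, and 0.25 at 12 months and day 14 was not called. Fos and Jun, subunits of AP-1, fell at day 3 of both ages, with changes of -0.63 and -0.68 for Fos and -0.54 and -0.37 for Jun. Spi1, which encodes PU.1, was called in none. Of 8 genes of receptor and ligand shedding and degradation, 6 were tested, with 1, 3, 1 and 0 higher and none lower and medians of 0.11, 0.20, 0.13 and -0.09. Ncstn, a subunit of gamma-secretase, rose by 0.28, 0.25 and 0.67 in the first 3 settings and its change at 3 months and day 3 was -0.03. At 3 months and day 14 contralateral Ncstn was lower than sham (-0.47, adjusted p = 0.00015), and ipsilateral Ncstn minus sham was 0.20 and not called (adjusted p = 0.085). Aph1a, another subunit, rose by 0.68 at 12 months and day 3 and was not called elsewhere.

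Across the 10 group means, the genes of the set varied to unequal extents. The span of group means was 0.58 for Csf1r, 2.26 for Csf1, 0.34 for Il34, 2.36 for Csf2ra and 2.47 for Csf2rb. Csf2ra and Csf2rb, the chains of 1 receptor, correlated at 0.94 over the 10 group means, whereas Csf1r correlated at -0.70 with Csf2ra and -0.73 with Csf1. These are descriptions of groups that share arrays, ages and hemispheres. The genes most like each one were sought among 2647 genes whose group means spanned at least 1 log2 unit, by Pearson's r over the 10 group means, with r over the 30 arrays as the second value. For Csf1r they were Etv1 (0.97 and 0.92), Ncoa3 (0.96 and 0.91) and Umps (0.96 and 0.93). For Csf2ra they were C8h19orf38 (0.99 and 0.96), Rab13 (0.99 and 0.96) and Septin9 (0.98 and 0.98). For Csf2rb they were Aldh2 (0.99 and 0.96), Nt5dc2 (0.99 and 0.96) and Atp13a2 (0.98 and 0.96). For Csf1 they were Rab7b (0.97 and 0.92), Noct (0.96 and 0.87) and Dusp10 (0.95 and 0.91). Il34, with its narrow span, had Ndrg1 (0.84 and 0.68), Ncf1 (0.81 and 0.55) and Gadd45b (0.80 and 0.53).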

How the data were processed

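Per the labels' protocols, RNA with integrity numbers above 7 was amplified from 50 ng and 5 µg of labelled cDNA went onto each Rat Gene 1.0 ST array. Affymetrix Expression Console and RMA, named in the submitters' processing notes without versions, gave the log2 signals deposited for 29214 probe sets on 30 arrays, which were used unscaled. Arrays of a group correlated at 0.9865 to 0.9953, and their number limits the precision.

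Gene symbols came from the platform's annotation and RefSeq genes of GRCr8 (15310 with 1 symbol, 323 with several and 13581 not listed, the first of which were used). A probe set was kept where it exceeded its array's 30th percentile on at least 3 arrays, and a gene was tested on its brightest probe set by mean. Groups were compared with limma 3.58.1 (lmFit and eBayes) in R 4.3.3, in 1 model of 10 group means with 20 residual and 8.8 prior degrees of freedom, in 21 comparisons. Adjusted p-values are limma's, by Benjamini-Hochberg over 11675 genes in each comparison. Standard deviations are over the 3 samples of a group.

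The sample codes tie ipsilateral and contralateral samples of 1 replicate number to 1 animal, so the numbers pair the samples of 12 animals. Paired deviations from the group means had correlations of -0.08 to 0.21 (0.072 by duplicateCorrelation). The labels do not say that sham replicates were separate animals, so p-values there reflect only sample spread, which may be technical. Alternatives changed the filter, the probe set rule, the scaling, the arrays fitted, the spread model and the animal block, and left out each array.

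The genes and the lists were chosen with earlier results of these data known. Named genes were the 5 genes, the 3 genes most like each by group means, and from each pathway list the 2 called most often between hemispheres. Csf2, Csf3, Ly6c, Itgam, Aif1, Cxcr2, Mmp8, Cd8a, Cd4, Cd3g, Cdh5, Cnp, Mbp, Spi1, Inpp5d, Lyn, Plcg2, Pik3r1, Stat3, Stat5a, Cish, Fos and Jun were named after their values were seen.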

Additional observations from a re-analysis of the deposited data

Results flagged for a closer look

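The hemisphere effect, ipsilateral minus contralateral, differed between days or ages for 3 of the 5 genes, by a test of the difference itself in limma. Of all tested genes, limma called 5.34% in the day contrast at 12 months and 3.81% at 3 months. It called 1.58% in the age contrast at day 3 and 0.00857% at day 14. Csf1 had a larger effect at day 14 than at day 3, by 1.17 ± 0.23 (SE) at 12 months (adjusted p = 0.0018) and by 0.82 ± 0.23 at 3 months (adjusted p = 0.043). Csf2ra had a smaller effect at day 14 than at day 3 in 3-month rats, with a difference of -0.74 ± 0.16 (adjusted p = 0.007). Csf2rb had a smaller effect at day 14 than at day 3 in 12-month rats, with a difference of -0.59 ± 0.15 (adjusted p = 0.015). At day 3 its effect was larger at 12 than at 3 months, by 0.62 ± 0.15 (adjusted p = 0.027). Fits without 1 array lost the call in 7 of 12 for Csf1 at 3 months and in 4 of 12 for Csf2rb at 12 months. The Csf2rb call between the ages was lost in 6 of 12. Csf1 at 12 months and Csf2ra at 3 months kept the call in all 12. Groups of 3 samples are too small to test for single outlying samples.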

How the results depend on the processing

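Outside the fits that left out an array, 725 of 754 alternative values kept direction and call, and of those of called changes 337 of 347. The Csf1 hemisphere effect, day 14 minus day 3 at 3 months, was no longer called without a filter (0.82, adjusted p = 0.051), with a trended robust spread (0.82, 0.052), after quantile normalization (0.78, 0.064) or with only the arrays compared (0.82, 0.19). Csf1 between hemispheres at 3 months and day 3 was called at 0.45 under the stricter percentile of 50 (adjusted p = 0.046), with the animal as a random replicate block (0.044) and with it as a fixed block (0.047). Csf1r between hemispheres at 3 months and day 14 stayed at -0.22 but was not called with the fixed animal block (0.091) or only the arrays compared (0.21). The blocks changed no other call. Quantile normalization reduced Csf1 between hemispheres at 12 months and day 3 to 0.34 (0.15).

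Quantile normalization reversed 11 values, 1 of them called. Contralateral minus sham became 0.10 for Csf1r, 0.15 for Csf1 and -0.020 for Il34 at 3 months and day 3, 0.020 for Csf1r (called in the unscaled data) and -0.018 for Il34 at 3 months and day 14, and -0.010 for Csf1r at 12 months and day 3. Day 14 minus day 3 became 0.071 and 0.043 for ipsilateral Csf1r at 3 and 12 months and 0.0020 for contralateral Il34 at 3 months. The hemisphere effect became 0.015 for Csf1r (day 14 minus day 3, 12 months) and -0.050 for Csf1 (12 minus 3 months, day 3). The cause was not tested.

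Without 1 array, values of the hemisphere effect ranged over 0.58 to 1.01 (Csf1, day 14 minus day 3, 3 months), -0.69 to -0.49 (Csf2rb, the same at 12 months), -0.51 to -0.28 (Csf2ra, 12 months), -0.14 to 0.0039 (Il34, 3 months), 0.55 to 0.70 (Csf2rb, 12 minus 3 months, day 3) and -0.24 to 0.19 (Csf1, the same). Ipsilateral minus contralateral ranged over 0.35 to 0.54 (Csf1, 12 months day 3), 0.26 to 0.69 (Csf1, 3 months day 3) and -0.27 to -0.18 (Csf1r, 3 months day 14). Differences near 0 that changed sign were contralateral minus sham for Csf1r at 12 months day 3 (-0.034 to 0.075), Csf2rb at 12 months day 14 (-0.044 to 0.16) and Csf2rb at 3 months day 14 (-0.014 to 0.16), and ipsilateral minus sham for Il34 at 12 months day 14 (-0.020 to 0.12). So did day 14 minus day 3 for ipsilateral Csf1r at 3 months (-0.061 to 0.041), contralateral Csf2ra at 12 months (-0.16 to 0.026) and 3 months (-0.072 to 0.041), contralateral Il34 at 12 months (-0.0060 to 0.075) and 3 months (-0.079 to 0.047), and Csf2ra between ages in sham (-0.051 to 0.11).

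The count of called genes changed over 1.5 times after quantile normalization for contralateral minus sham at 3 months day 14 (2669 against 4522) and the hemisphere effect between ages at day 3 (106 against 184). With only the arrays compared it did so for the hemispheres at 3 months day 14 (1412), contralateral days at 3 months (97) and the hemisphere effect between days at 3 months (141). Il34 lies near the dim limit, which bounds what its values can show.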
